A study of Mus musculus with 6 samples.

Results

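The axon guidance ligand and receptor families are the semaphorins with their plexin and neuropilin receptors, the Slits with their Robo receptors, the netrins with Dcc and Unc5, and the ephrins with their Eph receptors. Members were chosen by gene symbol, with earlier results of these data known. Of the 12393 genes named on the arrays, 56 belonged to these families. The semaphorin, plexin and neuropilin system had 26 and the Eph and ephrin system 19. The netrin, Dcc and Unc5 system had 6 and the Slit and Robo system 5. The members were measured in brains of Swiss albino mouse embryos at stage E11.5, counted in days of gestation, 1 brain on each array. The diabetic group held 3 malformed brains from embryos of mothers rendered diabetic by streptozotocin, which destroys pancreatic beta cells, and the control group held 3 brains from embryos of normal mothers. Diabetes of the mother and malformation of the brain cannot be told apart, since only malformed brains were taken in the diabetic group. Whether any brains came from 1 litter is not given in the sources used here.

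Guidance cues steer the tips of growing axons and migrating neurons. Secreted cues such as netrins, Slits and class 3 semaphorins act at a distance, while ephrins and the other semaphorin classes act mostly from the surface of neighbouring cells. Their receptors signal to the actin and microtubule cytoskeleton, so that a growth cone turns toward or away from the source. At this stage of mouse development the first axon tracts are being laid down, and the same families also shape blood vessels, tissue boundaries and closure of the neural tube.

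Replicates 1 and 2 of each group lay in a first value table (MOE430A arrays) and replicate 3 of each group in a second (Mouse430A_2 arrays, another scanner and washing protocol), so every difference was taken within a table. Values are linear probe set signals scaled to 1 trimmed mean per array, and the number of arrays limits their precision. Log2 changes are differences of log2(signal + 32), diabetic minus control, which compresses differences of dim genes, and errors are standard errors (SE, n = 3 per group) of limma. Arrays correlated across the probe sets that name 1 gene at 0.955 to 0.980 within a table and at 0.916 to 0.947 between tables. Diabetic replicate 2 had the lowest correlations with the controls of its table, 0.955 and 0.965, and 18S ribosomal RNA read 7891 on control replicate 1, while the remaining arrays lay between 101 and 265. The 3′ over 5′ signal ratio of Gapdh was 0.701 to 0.815 on diabetic arrays and 0.725 to 0.812 on control arrays. Of the brain markers listed, 4 of 6 region markers, all 11 progenitor markers and all 13 neuron markers on the arrays had a mean signal of at least 100, and En1 and Gbx2 did not.

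A mean signal of at least 100 was required for a contrast, and 41 of the 56 members met it, among 8631 genes tested. The member just inside was Plxnb3 with a mean signal of 103, and the one just outside was Slit3 with 89.2. Of the 41, 2 had a mean under 100 in the control group and passed through the diabetic group: Sema6a (181 in diabetic, 87.2 in control arrays) and Epha2 (157 and 91.8). On 10 of the 41 at least 1 array read below 100.

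No guidance gene passed the test. Limma called 0 of 41 members at a Benjamini-Hochberg adjusted p under 0.05, where it called 0 of all genes tested (0%), and adjusted p ran from 0.609 to 0.992 over the members. At an unadjusted p under 0.05 there were 3 of 41 members, 7.32%, against 7.59% of all genes tested. On the higher side this was 1 of 41, Sema3f, where the background was 3.72%. On the lower side it was 2 of 41, Epha3 and Robo1, where the background was 3.87%. Leaving out single arrays gave other counts: 5 without diabetic replicate 1 or without diabetic replicate 2, where all genes stood at 7.66% and 5.48%, and 6 without either array of the second table, where they stood at 9.8%. It was 3 without control replicate 1 or without control replicate 2, where all genes stood at 4.82% and 6.56%. The names changed as well. Epha3 and Robo1 were no longer among them without diabetic replicate 2, nor were Sema3f and Robo1 without diabetic replicate 3. Without control replicate 2 none of the 3 was among them, and Sema6a, Epha4 and Efnb2 were.

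In the pooled changes the members leaned slightly to the higher side. Log2 changes lay above 0 for 28 of 41 members (68.3%), against 52.2% of all genes tested, and below 0 for 13, against 47.8%. Their median was 0.081, against 0.012 over all genes tested, and their range was -0.78 to 1.02. The median was 0.035 without either array of the second table and 0.13 without control replicate 1. On diabetic replicates 1 to 3, 20, 24 and 28 of the 41 members lay above the control mean of the table. Over all 8631 genes tested these counts were 4498, 4127 and 4625. The lean was thus absent on diabetic replicate 1 and largest on the single diabetic array of the second table. These are descriptions with no test. The median size of a change, 0.17, was below the median SE of 0.18 and below the median difference between 2 arrays of the same group in the first table, which was 0.21 between diabetic and 0.28 between control replicates. For 20 of 41 members the change was smaller than its SE. Over ligands the median was 0.089 with 16 of 22 above 0, and over receptors it was 0.079 with 12 of 19 above 0.

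**Figure D1:**
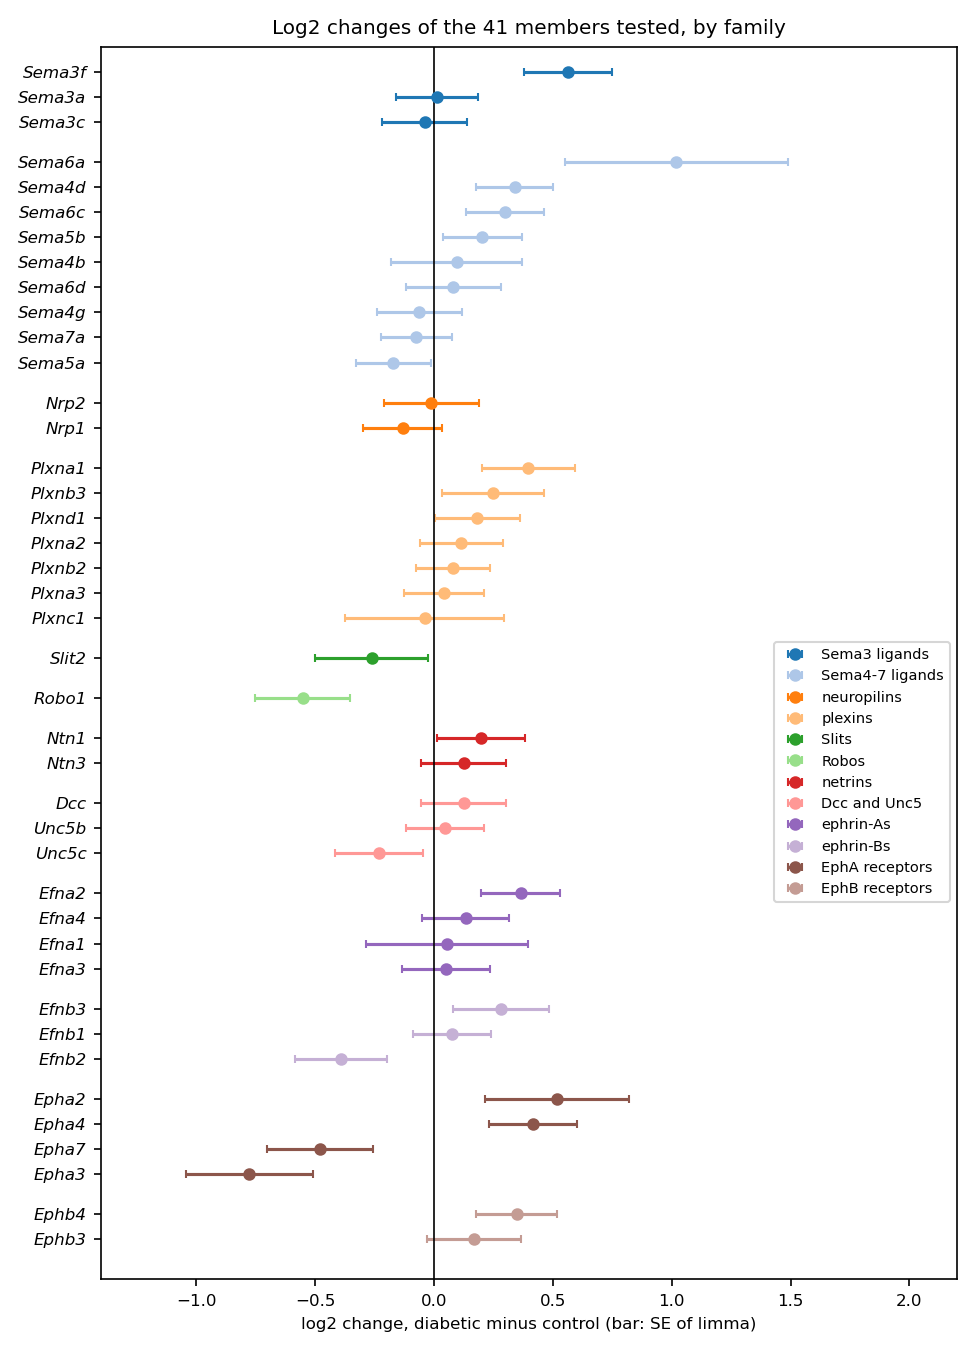
Log2 change (diabetic minus control, x axis) of each of the 41 members tested, grouped by family in colour, with bars for the SE of limma. Bars of 20 of the 41 members cross 0, and the changes run from -0.78 for Epha3 to 1.02 for Sema6a.

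The diabetic arrays lay above the control arrays of their own table, in both tables, for 7 of 41 members, against 11.3% of all genes tested. Those members were Sema3f, Sema4d, Sema5b, Sema6c, Plxna1, Efna2 and Ephb4, 5 of them semaphorins or a plexin. On the lower side 1 of 41 members, Epha3, was without overlap, against 10.7% of all genes tested. Without control replicate 2 the counts were 15 and 5, and without diabetic replicate 1 they were 11 and 5, where all genes stood at 20% and 18%, and at 19.1% and 18.6%. On the lower side the count was also 3 without control replicate 1, 2 without diabetic replicate 2, and 6 without either array of the second table, where all genes stood at 16.7%, 15.8% and 21.9%.

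**Figure D2:**
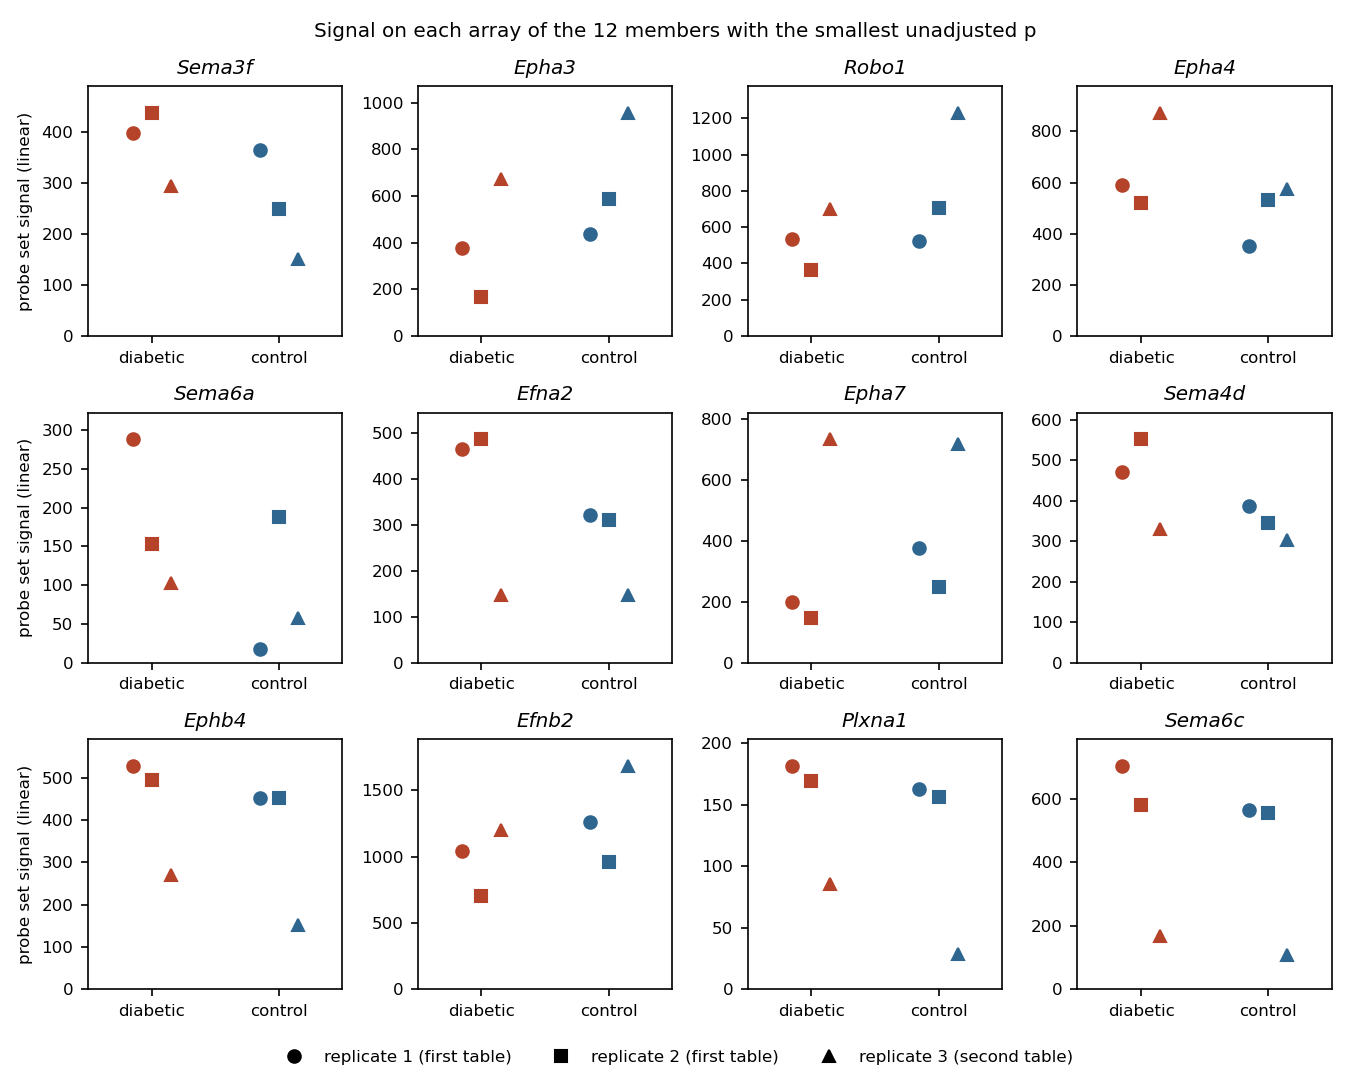
Linear probe set signal (y axis, from 0) on each of the 3 diabetic (left, red) and 3 control (right, blue) arrays for the 12 members with the smallest unadjusted p. Circles and squares are replicates 1 and 2 of the first table and triangles replicate 3 of the second; for Epha7 both triangles stand above all other points.

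The largest difference among all 56 members belonged to a gene below the signal minimum. Sema6b, a transmembrane class 6 semaphorin, had signals of 112, 177 and 59.3 on diabetic replicates 1 to 3, against 33.7, 27.1 and 6.60 on control replicates 1 to 3. Every diabetic array lay above every control array, across both tables. The means were 116 in the diabetic group and 22.5 in the control group, and the gene was not tested because its mean over all 6 arrays was 69.4.

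Without a filter on mean signal, Sema6b had a log2 change of 1.40 ± 0.19, an unadjusted p of 1.09e-04, which ranked 1 among 12393 genes, and an adjusted p of 0.743. It was picked out here after its values were seen. With the minimum at 50, which the gene passes only through the diabetic group, it also ranked 1 of 10194, with an adjusted p of 0.390 in limma. At that minimum its rank was 4 without control replicate 2, 2 without control replicate 1 and 17 without either array of the second table, and 2 with a pseudocount of 64, quantile normalization or the trend option. Its adjusted p over all these settings ran from 0.234 with the mean over all probe sets to 0.965 without control replicate 1. Its change was 1.48 within the first table and 1.24 within the second, and it ran from 1.22 to 1.53 when single arrays were dropped. With a pseudocount of 16 it was 1.76 and with 64 it was 1.02, both with the minimum at 50, so its size rests on how low signals are treated. The gene has a single probe set, and how background was taken from low signals is not given in the sources used here.

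A second member below the minimum differed in the other direction. Sema4f, a transmembrane class 4 semaphorin, had signals of 122, 15.1 and 13.0 on diabetic replicates 1 to 3, against 139, 115 and 64.1 on control replicates 1 to 3. Diabetic replicate 1 lay among the controls, while the other diabetic arrays were far below them. Without a filter its log2 change was -0.96 ± 0.39 with an adjusted p of 0.754, and with the minimum at 50 it was -0.49 without diabetic replicate 2 and -1.47 without diabetic replicate 1.

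The other members below the minimum showed no such separation. These were Sema3b, Sema3e, Sema4a, Slit1, Slit3, Robo3, Ntn4, Efna5, Epha1, Epha5, Epha6, Epha8 and Ephb6. On 4 of the 15 members below the minimum every array read under 100. With the minimum at 50, log2 changes of the 11 that then entered, besides Sema6b and Sema4f, ran from -0.38 for Sema3b to 0.23 for Ephb6.

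Among the class 3 semaphorins, which are secreted and mostly repel axons, Sema3f stood apart from the others. It signals through neuropilin 2 and class A plexins. Its signals were 398, 438 and 295 on diabetic replicates 1 to 3, against 365, 249 and 151 on control replicates 1 to 3. The groups did not overlap within either table, although control replicate 1 came close to diabetic replicate 1. The log2 change was 0.56 ± 0.19 with an unadjusted p of 0.0134 and an adjusted p of 0.609 in limma.

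That difference for Sema3f was 0.43 within the first table and 0.83 within the second, and it ran from 0.43 to 0.74 when single arrays were dropped. A second probe set of the gene had 0.29. Sema3a, the classic collapsing cue that binds neuropilin 1, had signals of 404, 483 and 419 on diabetic arrays, against 356, 439 and 509 on control arrays, with a log2 change of 0.012 ± 0.17. Its groups overlapped fully. Sema3c, which also guides neural crest and cardiac outflow cells, had -0.040 ± 0.18, with -0.26 within the first table and 0.40 within the second.

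Transmembrane and membrane-anchored semaphorins numbered 9 tested genes, with a median log2 change of 0.097 and 6 of 9 above 0. Sema4d, a ligand of B-class plexins, had signals of 472, 552 and 331 on diabetic replicates 1 to 3, against 386, 345 and 303 on control replicates 1 to 3. All diabetic arrays were higher within their table, by a narrow margin in the second. The log2 change was 0.34 ± 0.16 with an adjusted p of 0.662 in limma. Sema6c, a class 6 member, had 702, 579.7 and 168 on diabetic replicates against 565, 554 and 106 on control replicates, a log2 change of 0.30 ± 0.16. Its second probe set above the minimum had 0.41.

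Sema6a, which binds class A plexins, had the largest change among the members tested, 1.02 ± 0.47, and also one of the widest spreads. Its signals were 288, 154 and 102 on diabetic replicates 1 to 3, against 17.0, 188 and 56.9 on control replicates 1 to 3. The groups overlapped, because control replicate 2 lay above diabetic replicate 2, and control replicate 1 was lowest by far. Without control replicate 1 the change was 0.34 and without control replicate 2 it was 1.58, so control arrays of the first table set its size. The other probe set of Sema6a, with a mean signal of 37.9 and so below the minimum, had -0.090. Sema6a met the minimum only through the diabetic group, which favours a change above 0.

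Sema5b had a log2 change of 0.20 ± 0.17, from 459, 353 and 232 on diabetic replicates against 320.2, 321 and 231 on control replicates. Its second-table arrays were nearly equal, so the lack of overlap there rests on a very small gap, and without diabetic replicate 1 the change was 0.075. Sema5a, a class 5 semaphorin with thrombospondin repeats, had -0.17 ± 0.16 and 0.033 as the mean over its probe sets. Sema4b had 0.60 within the first table and -0.91 within the second, signals of 179.7, 170.2 and 75.3 on diabetic replicates standing against 103, 105 and 170.1 on control replicates. Such opposite signs in the tables left its pooled change at 0.097 ± 0.28. Sema4g, Sema6d and Sema7a, the last a cue anchored by a lipid tail, lay between -0.073 and 0.081.

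Of the receptors of semaphorins, the neuropilins had changes within their SE in the probe sets used. Nrp1, which binds class 3 semaphorins and vascular growth factor, had signals of 569, 475 and 453 on diabetic replicates 1 to 3, against 660.2, 521 and 475 on control replicates 1 to 3. Its log2 change was -0.13 ± 0.17, with -0.42 and -0.095 for its other probe sets. On both of these, every diabetic array was below the controls of its table. The former had 212, 222 and 341 on diabetic replicates 1 to 3, against 389, 301 and 361 on control replicates 1 to 3. The latter had 152, 150 and 164 against 163, 173 and 167, a narrow margin in the second table. Nrp2, the receptor of Sema3f, had 529, 342 and 294 against 361, 396 and 384 and a log2 change of -0.010 ± 0.20. So the diabetic arrays, of which all 3 were higher for Sema3f within their table, were both above and below the controls for its receptor.

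Plexins, the signalling receptors, had a median log2 change of 0.11 over 7 genes, 6 of them above 0, with 0.0080 within the first table and 0.53 within the second. Plxna1 had signals of 181, 169 and 85.9 on diabetic replicates 1 to 3, against 163, 157 and 28.3 on control replicates 1 to 3. The groups did not overlap within a table, and the difference came mainly from the second table, 0.97 there against 0.11 in the first. Its pooled change was 0.40 ± 0.20. Plxnb3 had 155, 131 and 32.4 on diabetic replicates against 121, 176 and 4.83 on control replicates, with 0.25 ± 0.21 in all and -0.029 in the first table.

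Plxnd1, the receptor of Sema3e in vessels and neurons, had a log2 change of 0.18 ± 0.18, with 0.0080 within the first table and 0.53 within the second. The median over endothelial markers was -0.13 within the first table and 0.32 within the second table, and their part in this result was not tested. Plxnb2, whose loss leaves the cranial neural tube of mice open, had signals of 1511, 1513 and 1226 on diabetic replicates, against 1322, 1617 and 1108 on control replicates. The arrays interleaved, and the change was 0.079 ± 0.16. Plxna2 and Plxna3 had 0.11 ± 0.17 and 0.043 ± 0.17. Plxnc1, the receptor of Sema7a, had -0.44 within the first table and 0.76 within the second.

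In the Slit and Robo system, only Robo1 and Slit2 met the signal minimum, and both had negative log2 changes. Robo1 is the receptor through which Slits repel axons from the midline. It had signals of 537, 361 and 702 on diabetic replicates 1 to 3, against 523, 707 and 1230.2 on control replicates 1 to 3. Diabetic replicate 1 stood just above control replicate 1, and the other diabetic arrays were below the controls of their table. The log2 change was -0.55 ± 0.20 with an unadjusted p of 0.0216 and an adjusted p of 0.635 in limma. It was -0.44 within the first table and -0.78 within the second, and ran from -0.74 to -0.43 when single arrays were dropped.

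Slit2, a secreted ligand of Robo1, had signals of 530.4, 591 and 1072 on diabetic replicates 1 to 3, against 994, 799 and 749 on control replicates 1 to 3. Both diabetic arrays of the first table were below their controls, and that of the second was above. The change was -0.64 in the first table, 0.50 in the second and -0.26 ± 0.24 in all. Without control replicate 1 it was -0.066 and without diabetic replicate 1 it was -0.11. The 2 genes, ligand and receptor, thus shared a sign within the first table and not in the second.

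Among the Eph receptors, Epha3 had the lowest log2 change of all members tested, -0.78 ± 0.27. It is a receptor of ephrin-As on neurons and mesenchymal cells. Its signals were 378, 165 and 673 on diabetic replicates 1 to 3, against 436, 587 and 957 on control replicates 1 to 3. Every diabetic array was below the controls of its table, with diabetic replicate 2 far below. The unadjusted p was 0.0167 and the adjusted p was 0.609 in limma. Without diabetic replicate 2 the change was -0.43 and without diabetic replicate 1 it was -1.04. Its other probe sets above the minimum had -0.34 and -0.27. On both of these, diabetic replicate 3 read above control replicate 3, at 442 against 423 and at 156 against 142. On the former, diabetic replicate 1 also stood above control replicate 1, at 256 against 217. The lack of overlap for Epha3 thus held only for the probe set used.

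The promoters of Epha3 and Robo1, the members lower at an unadjusted p under 0.05, are shown with the upstream start of Sema6b, the member with the largest difference. Each runs from 250 bases before to 50 bases after a RefSeq start in GRCm38.p6, read 5′ to 3′ along the gene. Capitals mark CANNTG, the core letters bound by proneural and other basic helix-loop-helix factors, which read the same on both strands. The RefSeq table held 61 such windows for 48 of the 56 members. CANNTG occurred in 45.9% of them, against 72.3% of all 32851 windows, which include many genes of other kinds. The Robo1 window held 3 matches, and those of Epha3 and Sema6b held 0, which says only that these letters are not in these windows. CG pairs numbered 18 in the Epha3, 15 in the Robo1 and 29 in the Sema6b window, against a median of 20 over member windows and 7 over all windows. Member windows thus differ from all windows in CG pairs as well, which limits the comparison of their CANNTG shares.
Epha3, chr16:63864126-63864425, minus strand: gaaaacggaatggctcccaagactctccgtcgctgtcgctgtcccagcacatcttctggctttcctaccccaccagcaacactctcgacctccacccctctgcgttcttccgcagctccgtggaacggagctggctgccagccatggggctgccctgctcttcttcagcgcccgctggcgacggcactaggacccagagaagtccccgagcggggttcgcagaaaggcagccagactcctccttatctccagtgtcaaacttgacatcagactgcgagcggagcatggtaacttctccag
Robo1, chr16:72662899-72663198, plus strand: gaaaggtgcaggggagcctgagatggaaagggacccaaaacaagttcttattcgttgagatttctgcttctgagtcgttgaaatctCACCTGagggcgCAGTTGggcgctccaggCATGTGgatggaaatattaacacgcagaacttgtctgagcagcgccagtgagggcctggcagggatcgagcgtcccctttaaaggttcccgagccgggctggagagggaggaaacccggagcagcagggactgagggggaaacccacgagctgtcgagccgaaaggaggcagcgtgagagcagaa
Sema6b, chr17:56140294-56140593, minus strand: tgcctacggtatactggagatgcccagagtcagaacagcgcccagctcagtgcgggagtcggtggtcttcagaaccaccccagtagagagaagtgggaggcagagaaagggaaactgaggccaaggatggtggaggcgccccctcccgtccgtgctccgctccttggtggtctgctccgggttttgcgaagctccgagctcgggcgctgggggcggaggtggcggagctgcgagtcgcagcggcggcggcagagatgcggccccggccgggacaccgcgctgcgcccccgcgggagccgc

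Within the first table, Epha3 and Robo1 read lowest on diabetic replicate 2, which also had the lowest summed signals of neuron and mesenchyme markers. Against the control mean of each table, Robo1 stood at -0.17, -0.70 and -0.78 on diabetic replicates 1 to 3. By that measure Robo1 was lowest on diabetic replicate 3. Of 13 neuron markers 12 had a log2 change below 0, with a median of -0.27, and their summed signal was 12731, 8616 and 19027 on diabetic replicates 1 to 3, against 16394, 15575 and 17586 on control replicates 1 to 3. All 12 mesenchyme and meninges markers lay below 0, with a median of -0.29 and sums of 13845, 12791 and 16011, against 15877, 16260 and 19171. On diabetic replicate 3 the neuron sum was above that of its control while only 6 of the 13 markers were. The part of these cells in the changes of Epha3 and Robo1 was not tested, and in whole tissue fewer cells of a type and less RNA per cell cannot be told apart. The medians on diabetic replicates 1 to 3, each against the control mean of its table, were -0.41, -0.78 and -0.023 for neuron markers and -0.020, 0.049 and 0.15 for all 41 guidance members.

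**Figure D3:**
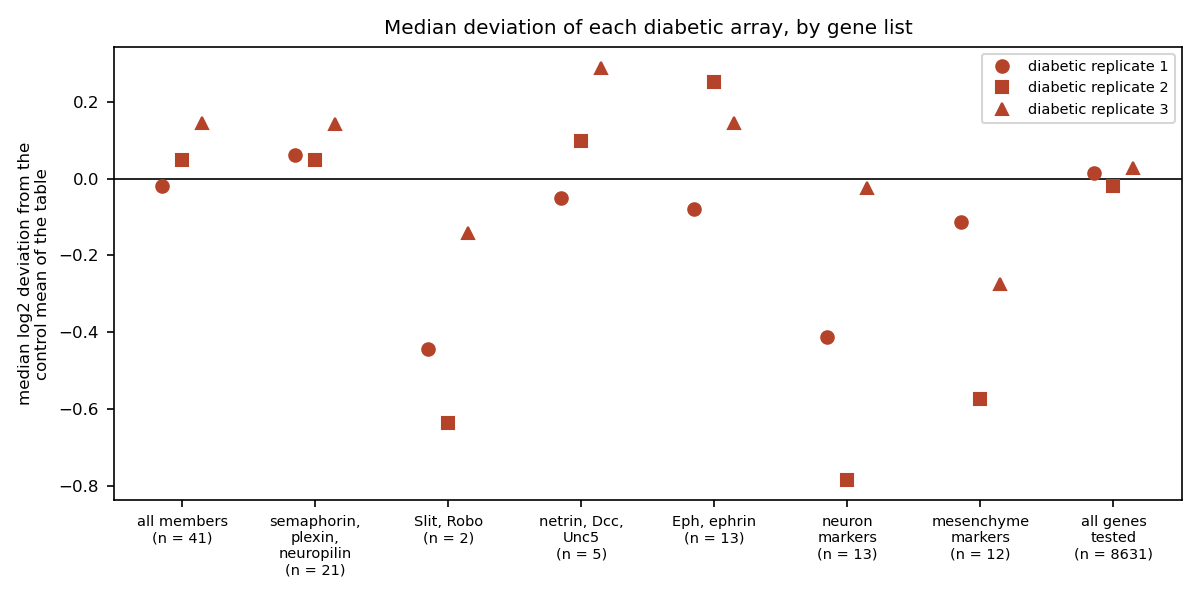
Median log2 deviation of each diabetic array from the control mean of its own table (y axis), for all members, the 4 signalling systems, neuron and mesenchyme markers and all genes tested, with the number of genes under each. Neuron markers reach -0.78 on diabetic replicate 2, where the median over all members is 0.049.

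Epha4 and Epha7 are receptors expressed in bands along the early brain. Epha4, which binds both classes of ephrins, had signals of 590.0, 521 and 872 on diabetic replicates 1 to 3, against 353, 530.3 and 575 on control replicates 1 to 3, with diabetic replicate 2 just below control replicate 2. Its log2 change was 0.42 ± 0.19, with an unadjusted p of 0.0505 and an adjusted p of 0.656 in limma. The second probe set of Epha4 had the opposite sign, -0.20, with 255, 209.7 and 426 on diabetic replicates against 311, 263 and 438 on control replicates. There every diabetic array was below the controls of its table, so the direction for this gene depends on the probe set.

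Epha7 had signals of 198, 148 and 732 on diabetic replicates 1 to 3, against 376, 248 and 717 on control replicates 1 to 3. The diabetic arrays of the first table were lower and those of the second table nearly equal, which gave -0.73 and 0.028 in the tables and -0.48 ± 0.22 in all. Without control replicate 1 the pooled change was -0.25 and without diabetic replicate 2 it was -0.30. Its second probe set above the minimum had -0.029. Epha2, found on early epithelia and progenitors, had 0.52 ± 0.30, and without diabetic replicate 2, whose signal of 261 was the highest, it had 0.13.

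Of the B-class receptors, Ephb4, a marker of venous endothelium, had signals of 528, 494 and 270.5 on diabetic replicates 1 to 3, against 453, 452 and 152 on control replicates 1 to 3. All diabetic arrays were higher within their table. The change was 0.35 ± 0.17, with 0.16 within the first table and 0.71 within the second, and an adjusted p of 0.662 in limma. Endothelial markers had 5 of 9 members above 0 and a median of 0.014, with summed signals of 2804 to 3252 on diabetic arrays and 2132 to 3548 on control arrays, and their part was not tested. Ephb3 had 0.17 ± 0.20, and its signal of 796 on diabetic replicate 2 stood above 419 to 522 on all other arrays.

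Its arterial partner Efnb2, the transmembrane ligand of Ephb4, had the opposite sign in the probe set used. Signals were 1041, 706 and 1203 on diabetic replicates 1 to 3, against 1263, 961 and 1685 on control replicates 1 to 3. Diabetic replicate 1 lay between the controls of its table, and the change was -0.39 ± 0.19 with an adjusted p of 0.662 in limma. Efnb2 was covered by 3 further probe sets above the minimum, with changes of -0.023, 0.35 and 0.28, and the mean over all of them was 0.053. No direction could therefore be given for this gene.

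The other ephrins had changes above 0. Efna2, a lipid-anchored ephrin, had signals of 467, 487 and 148 on diabetic replicates 1 to 3, against 322, 312 and 148 on control replicates 1 to 3. The first table showed a clear gap and the second nearly equal arrays, with 0.54 and 0.0053, for a pooled change of 0.36 ± 0.17. Efnb3, a midline ephrin of the spinal cord, had 0.28 ± 0.20, and 0.11 without diabetic replicate 2 or without control replicate 1. Efna1, Efna3, Efna4 and Efnb1 lay between 0.050 and 0.13, each changing sign when single arrays were dropped. Efna1, Efna3 and Efna4 lie on chromosome 3. Over the 7 ephrins tested the median was 0.075, and over the 6 Eph receptors it was 0.26, receptors ranging from -0.78 to 0.52.

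In the netrin system no member was at an unadjusted p under 0.05. Ntn1, the floor plate attractant of commissural axons, had signals of 722, 816 and 838 on diabetic replicates 1 to 3, against 871, 642 and 573 on control replicates 1 to 3. The diabetic values were the tighter set, within the range of the first-table controls and above that of the second. Its change was 0.20 ± 0.18, with 0.035 within the first table and 0.52 within the second, and 0.51 for its other probe set. Without control replicate 1 the change of Ntn1 was 0.37. Ntn3 had 0.13 ± 0.18, with 0.015 without diabetic replicate 1 and 0.28 without diabetic replicate 2.

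Of the netrin receptors, Dcc and Unc5b had changes within their SE. Dcc, which mediates attraction to netrin, had signals of 199, 252 and 126 on diabetic replicates, against 219, 248 and 81.5 on control replicates, for a change of 0.13 ± 0.18 and -0.049 in the first table. Unc5c, which turns the response into repulsion, had 527, 568 and 281 on diabetic replicates against 618, 496 and 462 on control replicates. Its change was -0.23 ± 0.19, and most of it came from the second table, with -0.66 there and -0.016 in the first. Unc5b, a receptor also found on vessels, had 0.047 ± 0.16.

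The tables agreed little on single members. Log2 changes of the first and of the second table, which share no array, correlated at 0.11 (Pearson) and 0.028 (Spearman) across the 41 members, a description over genes that share arrays and scaling. Over all genes tested these were 0.039 and 0.037. Signs were the same for 22 of 41 members, with 16 above and 6 below 0 in both tables, and for 51.5% of all genes tested. As single arrays were left out, 24 of 41 members kept their sign throughout, and the share over all genes tested was not taken. Sema3f, Epha3 and Robo1 were among them, but these had been picked by their p on the same arrays. The fits without either array of the second table are the same fit.

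**Figure D4:**
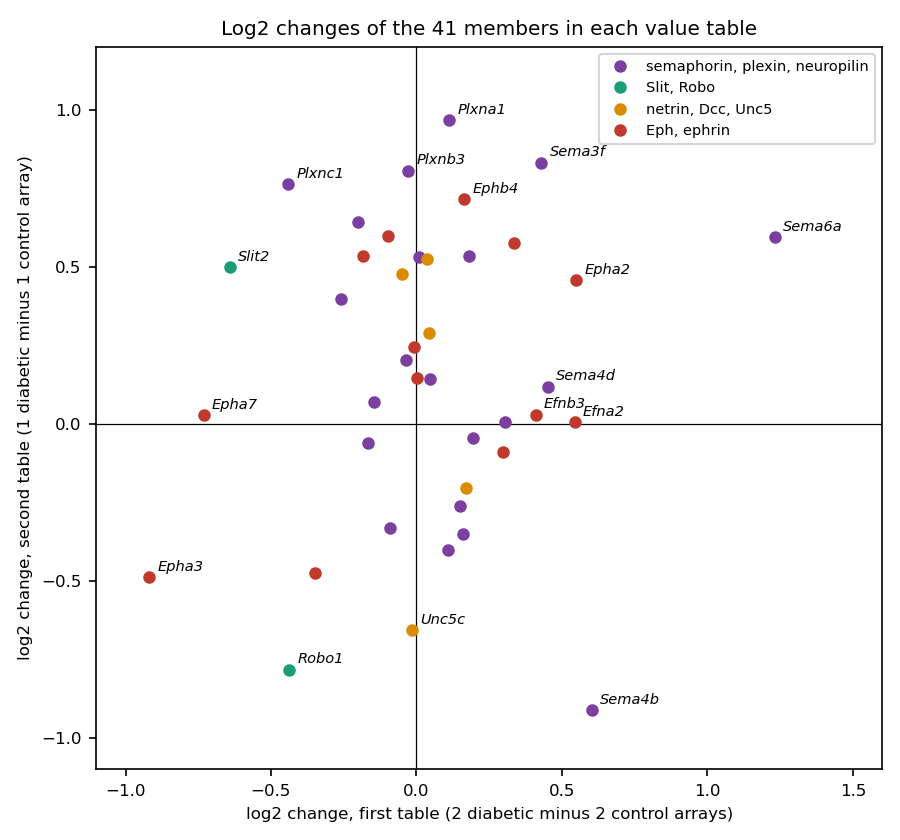
Log2 change of each of the 41 members in the first table (x axis, 2 diabetic minus 2 control arrays) against the second (y axis, 1 minus 1), coloured by signalling system. Points spread over all quadrants; Epha3 and Robo1 lie at lower left, Sema3f and Sema6a at upper right, and Sema4b and Slit2 have opposite signs in the tables.

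Several probe sets for 1 gene gave a further check. Of the 41 members, 14 had at least 1 further probe set with a mean signal of 100 or more, 20 probe sets in all, and 15 of the 20 had the sign of the one used. The disagreeing ones belonged to Efnb1, Efnb2, Epha4 and Sema3a. The others were Sema3f, Epha3, Ntn1, Sema6c, Unc5c, Efna1, Epha7, Nrp1, Plxna3 and Plxnc1. Their pooled changes had a single sign over all their probe sets above the minimum. For Robo1 there was 1 probe set.

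**Figure D5:**
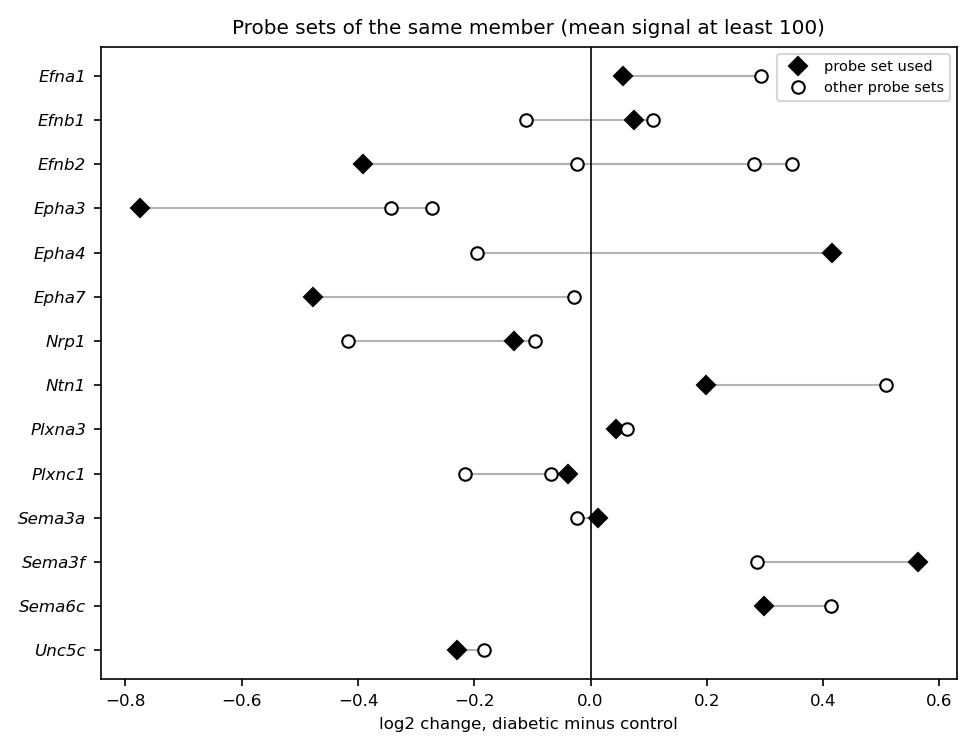
Log2 change (diabetic minus control, x axis) of each probe set with a mean signal of at least 100, for the 14 members with more than 1; filled diamonds are the probe sets used, open circles the others. For Efnb2 the probe sets run from -0.39 to 0.35, and for Epha3 all lie below 0.

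Beyond the ligands and receptors, 68 listed partner genes of the pathway were on the arrays and 56 were tested. Limma called 0 of 56 at an adjusted p under 0.05, and 8 of 56 had an unadjusted p under 0.05, where 7.59% of all genes did. Of the 14 co-receptors, adhesion partners and other cues, 5 lay above and 9 below 0, with a median of -0.095. Ptprd, a receptor phosphatase of neurons, had signals of 466, 409.9 and 369 on diabetic replicates 1 to 3, against 652, 618 and 681 on control replicates 1 to 3. Every diabetic array was below every control array, with a log2 change of -0.61 ± 0.16 and an adjusted p of 0.526. Ncam1, the neural cell adhesion molecule, had -0.68 ± 0.21, from 469, 264 and 613 against 588, 534 and 1103, and was lower on each diabetic array within its table. That value rests on the probe set: it was -0.10 when probe sets were chosen on the log2 scale and -0.079 with the mean over all probe sets.

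Cytoplasmic effectors, the proteins that carry guidance signals to the cytoskeleton, had a median of -0.0018 over 42 genes, 20 above and 22 below 0. Mical2, an actin-oxidising enzyme related to the plexin effector Mical1, had 216, 216 and 60.6 on diabetic replicates 1 to 3, against 114, 137 and 32.5 on control replicates 1 to 3. Its log2 change was 0.61 ± 0.15 with an adjusted p of 0.526 in limma. Srgap2, of the family that links Robo receptors to small GTPases, had 0.68 ± 0.21, from 301, 464 and 173 against 168, 250.3 and 115. Both genes were higher on every diabetic array within its table, and neither passed the adjustment.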

How the data were processed

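Arrays of 6 embryonic brains, 3 per group, were used, with groups and replicate numbers from the sample titles. The authors deposited linear probe set intensity values in 2 tables of 22690 probe sets. Per the submitters' processing notes GCOS, the Affymetrix software, was used, but its version and settings are not given here. Chip types are given per the file headers. Each array was rescaled to a 2% trimmed mean of 500, and log2(signal + 32) was taken. Each gene was represented by the probe set of highest mean signal among the 20380 that name 1 gene, and a mean of at least 100 was required for testing. All 56 members matched the RefSeq gene table by identifier. The contrast of the groups was fitted in limma 3.58.1 under R 4.3.3, two-sided, adjusting p-values by Benjamini-Hochberg across the 8631 tested genes at a threshold of 0.05, with the table as a block and 3 residual degrees of freedom. The median SE over all genes was 0.17. Whether brains came from separate litters is not given in the labels, so p-values cannot be said to measure a spread between litters. They rest on the spread between these brains within a table and on how far the tables differ in the contrast. Limma also draws the variance of each gene toward that of all genes. The fit was run on simulated data with the same spread for all genes and planted changes larger than that of any member. That run does not show whether changes of the size seen here could be found. Members and lists were chosen with earlier results of these data known. Members given in full were the 8 of smallest p of the semaphorin and of the Eph systems, up to 4 of the others and 4 partner genes. Alternatives covered pseudocount, filter, probe set choice, normalization, weights, tables and single arrays.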

Additional observations from a re-analysis of the deposited data

How the results depend on the processing

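At an adjusted p under 0.05 limma called 0 members and 0 partner genes under every alternative with a test, and the smallest adjusted p of the 41 members ran from 0.352 (array weights) to 0.948 (without control replicate 1). Sema6b, below the minimum, reached 0.234 with a minimum of 50 and the mean over all probe sets. Members at an unadjusted p under 0.05 were 3 here, 5 with a pseudocount of 64, a minimum of 50, no filter, array weights or the trend option (all genes 7.64%, 7%, 6.56%, 10.2% and 7.89%), 6 in the first table alone (9.8%), and 3 to 6 as single arrays were left out (4.82% to 9.8%). With the replicate number as a block this count was 7 (Epha3, Sema3f, Epha2, Robo1, Efnb2, Epha7 and Sema6a), where all genes stood at 7.33%, and no adjusted call changed. Whether the numbers pair the arrays is not given in the labels. In the first table, differences between replicates 1 and 2 of the diabetic and control groups correlated at -0.013 across genes. That shows no shared shift but cannot settle a pairing. Members without overlap were 28 higher in the second table alone, which is 1 array against 1 (all genes 53.6%), and 9 to 15 as single arrays were left out (18% to 21%). On the lower side they were 3 with the mean over all probe sets (all genes 9.95%), 6 in the first table alone (21.9%), 13 in the second (46.4%), and 2 to 6 as single arrays were left out (15.8% to 21.9%). In the second table alone, medians were 0.15 over all members, 0.14 for semaphorins and receptors, -0.14 for Slit and Robo and 0.29 for the netrin system. Leaving out single arrays gave 0.053 to 0.17 for semaphorins and receptors and 0.0017 to 0.31 for Eph and ephrins. Signs reversed for Plxnb3 (-0.029) and Dcc (-0.049) in the first table alone, and so without either array of the second, with ranges of -0.029 to 0.46 and -0.049 to 0.26. They also reversed for Dcc with array weights (-0.028), for Sema5a (0.033) and Efnb2 (0.053) with the mean over all probe sets, and for Epha7 (0.028) and Slit2 (0.50) in the second table alone. The cause was not tested. Among 485 alternatives for the 26 named genes, 11 reversed. This share does not measure how stable the signs are, because the signal minimum, the trend option and the replicate block leave a log2 change as it is. The first table alone and the fits without either array of the second table are also the same fit. The minimum of 50 combined with other settings, used for Sema6b and Sema4f, was chosen after seeing the data. With 3 arrays a group and low signals of unknown background treatment, no change of a member or partner gene passed the adjustment. That includes changes well above their SE, such as 0.56 ± 0.19 for Sema3f and -0.78 ± 0.27 for Epha3.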
